A study of Mus musculus with 12 samples.

Results

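The skin of control mice given rapamycin (RAPA) was compared with the skin of control mice that received none. The members are the 3 control + RAPA and the 3 control libraries named so in the labels, 6 of the 12 RNA-sequencing libraries of the study. The other 6 libraries come from skin injected with LL37, the human cathelicidin peptide that induces rosacea-like inflammation in mice, without (LL37) or with RAPA (LL37 + RAPA). All mice were of the BALB/c strain, and the study describes its BALB/c mice as females aged 6 to 8 weeks. Per the methods of the study, control mice received intradermal injections of vehicle into the shaved back skin, 2 a day for 2 days, and RAPA was given to BALB/c mice intraperitoneally at 4 mg/kg per day. The route for the sequenced mice is not stated apart from that. No deletion or transgene was carried by any group. Each library was prepared from whole skin, so a lower level of a transcript can come from fewer cells of a type or from less RNA per cell, and these cannot be told apart. The comparison addresses what RAPA does to skin that was not inflamed by LL37.

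RAPA binds the immunophilin FKBP12, encoded by Fkbp1a, and the pair then binds the kinase mTOR and inhibits mTOR complex 1 (mTORC1). mTORC1 senses nutrients and growth factors and promotes protein synthesis, ribosome production, lipid synthesis and mitochondrial activity, while it restrains autophagy. In immune cells it also takes part in the production of type I interferon. Interferons act through their receptors and a complex that includes STAT2 and IRF9, which binds the interferon-stimulated response element in promoters and switches on interferon-stimulated genes (ISGs). In skin, ISGs keep a low level of activity at rest and are expressed by keratinocytes, fibroblasts, endothelium and leukocytes.

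Promoters of 3 ISGs are printed to show the sequence through which this pathway acts. A response element of the form GAAANNGAAA was searched on both strands in RefSeq promoters of GRCm38.p6, each running from 250 bases before a transcript start to 50 bases after it. The capitals mark the matches, which on the opposite strand read as the reverse complement. In each of 3 role groups the gene shown is the one with the smallest p among ISGs lower with RAPA that hold a match before the start. The promoter of Irgm2, an immunity-related GTPase, lies on the plus strand at chr11:58214727-58215026 and its match lies 64 to 55 bases before the start. That of Stat2, which transmits the interferon signal, lies on the plus strand at chr10:128270248-128270547, with a match on the opposite strand 222 to 213 bases before the start. That of Bst2, which tethers budding virus particles to the cell, lies on the minus strand at chr8:71537423-71537722 and holds 2 overlapping matches, the first beginning 130 bases before the start.
Irgm2: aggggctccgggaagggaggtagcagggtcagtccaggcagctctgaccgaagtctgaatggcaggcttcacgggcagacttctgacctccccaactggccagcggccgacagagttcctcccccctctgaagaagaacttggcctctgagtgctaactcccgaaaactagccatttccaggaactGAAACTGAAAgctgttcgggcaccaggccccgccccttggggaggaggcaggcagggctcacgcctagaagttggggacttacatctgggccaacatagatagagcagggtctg
Stat2: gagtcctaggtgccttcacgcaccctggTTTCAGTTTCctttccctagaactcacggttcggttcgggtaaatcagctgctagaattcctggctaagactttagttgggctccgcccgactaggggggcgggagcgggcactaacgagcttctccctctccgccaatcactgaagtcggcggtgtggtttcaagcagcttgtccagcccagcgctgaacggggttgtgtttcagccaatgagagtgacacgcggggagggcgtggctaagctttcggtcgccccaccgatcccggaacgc
Bst2: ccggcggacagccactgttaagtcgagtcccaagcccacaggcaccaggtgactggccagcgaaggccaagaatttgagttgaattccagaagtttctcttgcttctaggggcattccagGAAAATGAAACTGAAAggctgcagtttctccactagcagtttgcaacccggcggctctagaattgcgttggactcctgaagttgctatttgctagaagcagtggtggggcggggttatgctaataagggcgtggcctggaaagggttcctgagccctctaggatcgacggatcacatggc

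A match was found in 21 of 37 tested ISGs with a promoter entry (56.8%). It was found in 444 of 11993 tested genes with an entry (3.70%) and in 1131 of all 32851 promoters in the table (3.44%). Among the 27 ISGs with an entry that were lower in all RAPA libraries, 16 held a match (59.3%), and among the 10 whose libraries overlapped, 5 did (50%). Of 962 other genes lower in all RAPA libraries, 4.99% held a match, and of 978 genes higher in all of them, 2.66% did. A match is a description of the letters and no evidence of binding.

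The 6 libraries held between 18184939 and 21289034 counts. No gene was called by edgeR's quasi-likelihood test at a Benjamini-Hochberg adjusted p under 0.05 among 16972 tested genes (0%), the smallest adjusted p being 0.258. At an unadjusted p under 0.05 there were 1755 genes (10.3%), with 871 higher in control + RAPA (5.13%) and 884 lower (5.21%). limma voom called 0 genes and DESeq2 called 217, of which 89 were higher and 128 lower. Without the library of control replicate 2, edgeR called 78 genes, 75 of them lower. Without control + RAPA replicate 1 it called 1, Krt2. The median absolute log2 fold change over all tested genes was 0.15. Since no gene passed the main test, genes are described by their value in each library, and as not overlapping where all 3 libraries of one group lay above all 3 of the other. By that description 1345 genes were higher (7.92%) and 1358 lower (8.0%) with RAPA, and 42 of the higher and 157 of the lower genes differed by more than 1 on the log2 scale. Scaling by library size alone in place of TMM turned this split into 764 higher and 1988 lower, so lists with small medians depend on the scaling. The first principal component, with 32.7% of the variance, placed the control libraries from -32.0 to -6.87 and the RAPA libraries from 7.57 to 40.8. Keratin, collagen, endothelial, adipocyte and macrophage genes were detected in every library, and skeletal muscle genes took 5.87% to 8.24% of counts in control and 6.07% to 9.58% in control + RAPA. Krt25, Krt27 and Krt71 of the growing hair follicle and Ly6g of neutrophils were at or near 0 in all 6.

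ISGs were the list with the lowest median and the largest share of members lower with RAPA. Of 56 listed genes 53 were tested, and all 53 had a log2 fold change below 0. In 40 (75.5%) all 3 RAPA libraries lay below all 3 controls, against 8.0% of all tested genes, and none lay above. An unadjusted p under 0.05 was found for 48, against 5.21% in that direction over all genes. The median log2 fold change was -1.34, against -0.01 over all genes, with single genes from -3.0 to -0.16. The control mean was at least 2 times the RAPA mean for 36 genes. None was called by the main test, and their adjusted p ran from 0.258 to 0.883. DESeq2 called 34 of them, all lower, while it called 0.761% of all genes in that direction. The 100 lower genes with the smallest p and no overlap included 27 ISGs, while ISGs were 2.95% of all lower genes without overlap and 53 of the 16972 tested genes. The 100 genes were chosen by p and overlap in these same libraries, so this count is not separate support.

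In the ISGs the control libraries varied more than the RAPA libraries. Control replicate 2 was the lowest control for 50 of the 53 genes. The median coefficient of variation of an ISG was 44.3% over the controls and 15.7% over the RAPA libraries, against 12.3% and 11.9% for all tested genes. Of the 13 ISGs whose groups overlapped, 12 did so through control replicate 2 alone. Without that library 52 ISGs did not overlap and the median was -1.60, while the share of all genes lower without overlap was 15.1%, since 2 controls are separated more easily than 3. In that fit edgeR called 27 ISGs, all lower, against 0.432% of all genes. Without control replicate 3, the highest control for all 21 tested antiviral effectors, the median was -1.01.

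**Figure D1:**
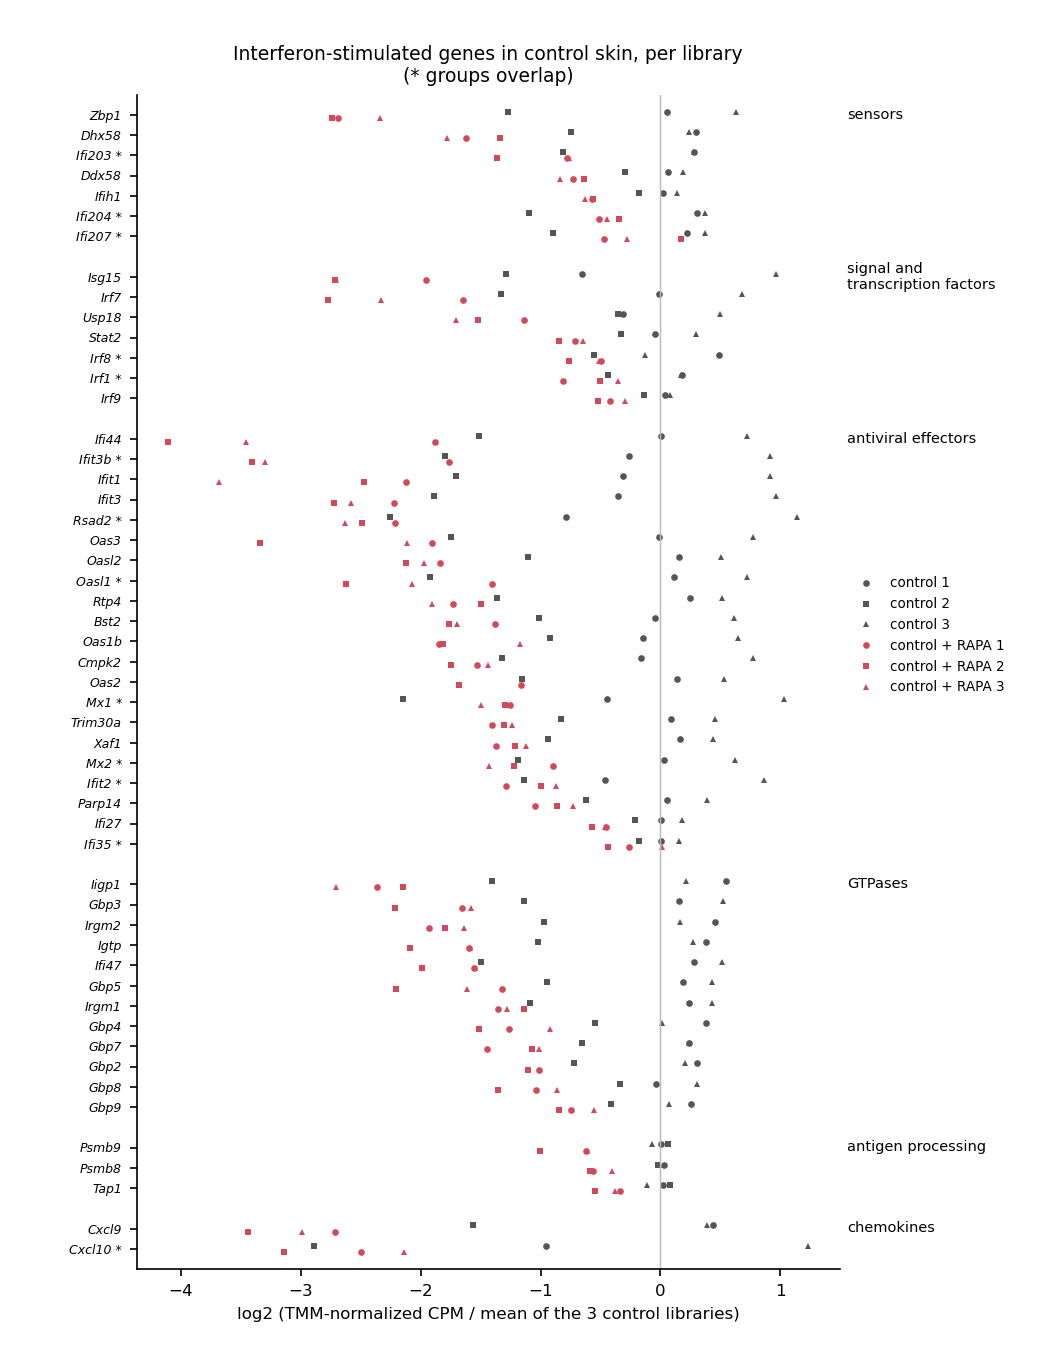
Each row is a tested ISG, with 1 of the 53 not drawn, and each point a library, placed by its TMM-normalized CPM on a log2 scale relative to the mean of the 3 controls, with genes grouped by role. Points of control + RAPA lie to the left of all controls for 40 of 53 genes, and an asterisk marks the 13 whose groups overlap, mostly through the square of control 2.

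Among the sensors of viral nucleic acid, 4 of 7 were lower without overlap, against 8.0% of all genes. Zbp1, which binds Z-form nucleic acid and can trigger necroptosis, stood at 10.7, 4.26 and 15.99 CPM in control and at 1.60, 1.55 and 2.03 CPM in control + RAPA, a log2 fold change of -2.58 (SE 0.45, edgeR adjusted p = 0.258). It is at chr2:173206612-173218923 on the minus strand (GRCm38). All RAPA libraries were lower than the lowest control. Ddx58, which encodes the RNA sensor RIG-I, was at 23.2, 18.0 and 25.3 CPM in control and 13.4, 14.2 and 12.4 CPM with RAPA, a log2 fold change of -0.73 (SE 0.15). Its partner Ifih1 (MDA5) differed by -0.59 (SE 0.12) and Dhx58 (LGP2) by -1.56 (SE 0.31) on the same scale, both without overlap. Ifi203, Ifi204 and Ifi207 of a family of close copies overlapped.

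Of 8 genes of interferon signalling, 6 were lower without overlap, against 8.0% of all genes. Irf7, the factor that amplifies type I interferon production, was at 82.3, 32.9 and 133 CPM in control and at 26.4, 12.1 and 16.4 CPM with RAPA, so that the highest RAPA library lay just under the lowest control. Stat2 was at 45.3, 37.3 and 57.6 CPM in control and 28.6, 26.0 and 29.9 CPM with RAPA. Stat2 and Irf9, which act in 1 complex, differed by -0.73 (SE 0.16) and -0.41 (SE 0.10) on the log2 scale, both without overlap. Usp18, a negative regulator of the receptor, differed by -1.43 (SE 0.29) and Isg15, a ubiquitin-like modifier, by -2.41 (SE 0.58). For Isg15 control replicate 3, at 21.0 CPM, stood far above the other controls at 6.81 and 4.41 CPM.

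Of 21 tested antiviral effectors, 14 were lower without overlap, against 8.0% of all genes. The median log2 fold change of the 21 was -1.57. Oasl2, of the oligoadenylate synthetase family, was at 29.3, 12.2 and 37.2 CPM in control and at 7.36, 6.05 and 6.71 CPM with RAPA (log2 fold change -1.97, SE 0.36, edgeR adjusted p = 0.258). Bst2 was at 44.3, 22.7 and 70.0 CPM against 17.6, 13.4 and 14.1 CPM. Both genes had a narrow RAPA group and a broad control group. Ifit1 and Ifit3, which bind viral RNA, differed by -2.60 (SE 0.67) and -2.49 (SE 0.63), and Ifi44 by -2.84 (SE 0.67). Rsad2, the antiviral enzyme viperin, overlapped, because control replicate 2 at 2.65 CPM lay under control + RAPA replicate 1 at 2.73 CPM.

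The interferon-inducible GTPases, which attack the vacuoles of intracellular pathogens, were lower without overlap in 12 of 12 tested members, against 8.0% of all genes. Their median log2 fold change was -1.46. Irgm2 was at 22.1, 8.23 and 18.0 CPM in control and 4.22, 4.64 and 5.17 CPM with RAPA (log2 fold change -1.78, SE 0.33). Iigp1 was at 26.7, 6.91 and 21.1 CPM against 3.55, 4.13 and 2.80 CPM (-2.38, SE 0.45). The annotated spans of Irgm2 and Igtp overlap on the same strand and the guanylate-binding proteins Gbp4, Gbp8 and Gbp9 share a span, so that reads may have been split among neighbours and these are not independent measurements. Gbp6 was not tested, at up to 1.34 CPM in control and 0.309 CPM with RAPA. Oas1a and Oas1g had 0 counts in all 6 libraries and were not tested either.

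The genes of antigen processing had the tightest groups. Psmb8, a catalytic subunit of the immunoproteasome, was at 65.0, 63.0 and 63.1 CPM in control and at 43.1, 42.3 and 48.0 CPM with RAPA (log2 fold change -0.52, SE 0.08, edgeR adjusted p = 0.258). Psmb9, a further immunoproteasome subunit, was at 44.9, 46.7 and 42.7 CPM against 29.1, 22.3 and 29.2 CPM (-0.74, SE 0.12). For Psmb9 control replicate 2 was the highest control. The peptide transporter Tap1 differed by -0.42 (SE 0.10). These genes lie side by side in the major histocompatibility complex (MHC), Psmb9 at chr17:34181987-34187764 on the minus strand, Tap1 at chr17:34187553-34197225 and Psmb8 at chr17:34197721-34201454, both on the plus strand. Psmb9 and Tap1 overlap on opposite strands, and the library kit does not mark strand, so their reads cannot be told apart there.

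A list of MHC class I and antigen processing genes, written after the counts had been seen, had 26 tested members, all with a log2 fold change below 0, and 17 (65.4%) lower without overlap, against 8.0% of all genes. Its median was -0.33, and it holds Psmb8, Psmb9 and Tap1 as well. B2m, the light chain of class I molecules, was at 717, 759 and 744 CPM in control and at 564, 608 and 598 CPM with RAPA. H2-Q1, a class I gene with close copies, was at 9.55, 6.81 and 11.1 CPM against 4.32, 3.38 and 2.64 CPM. The list took 0.350%, 0.359% and 0.357% of counts in control and 0.264%, 0.289% and 0.286% with RAPA, without overlap (exact permutation p = 0.1, two-sided, the smallest that 3 against 3 libraries allow). The ISGs took 0.129%, 0.0870% and 0.159% in control and 0.0634%, 0.0605% and 0.0675% with RAPA (exact permutation p = 0.1). Adjusted over all lists, both permutation p were 0.733. Since the MHC class I list was written after the counts had been seen, its permutation p is no separate support. Of the interferons, their receptors and further sensors, also listed after the counts had been seen, 21 of 35 were tested. Of these 2 (9.52%), Tlr7 and Tlr3, were lower without overlap, with a median of -0.15 over the 21.

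The ISGs were set beside the effect of RAPA in LL37 skin, which shares no library with the comparison in control skin. In a fit of all 12 libraries, 54 ISGs were tested, with a median log2 fold change of -1.38 in control skin and -1.86 in LL37 skin. In LL37 skin 49 were lower without overlap (17.6% of all genes were) and 47 were called by edgeR as lower at an adjusted p under 0.05, against 11.8% of all genes. The difference between both effects was called for 0 of the 54, while 590 of 17993 genes (3.28%) were called in that interaction. An unadjusted interaction p under 0.05 was found for 13 ISGs, and the share of all genes under that limit is not given here. Without LL37 replicate 3, 3145 genes were called in the interaction and 7 ISGs among them. ISG counts took 0.513%, 0.242% and 0.288% of LL37 libraries and 0.112%, 0.0938% and 0.132% of LL37 + RAPA libraries. The lowest control library, at 0.0870%, thus lay below every LL37 + RAPA library.

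**Figure D2:**
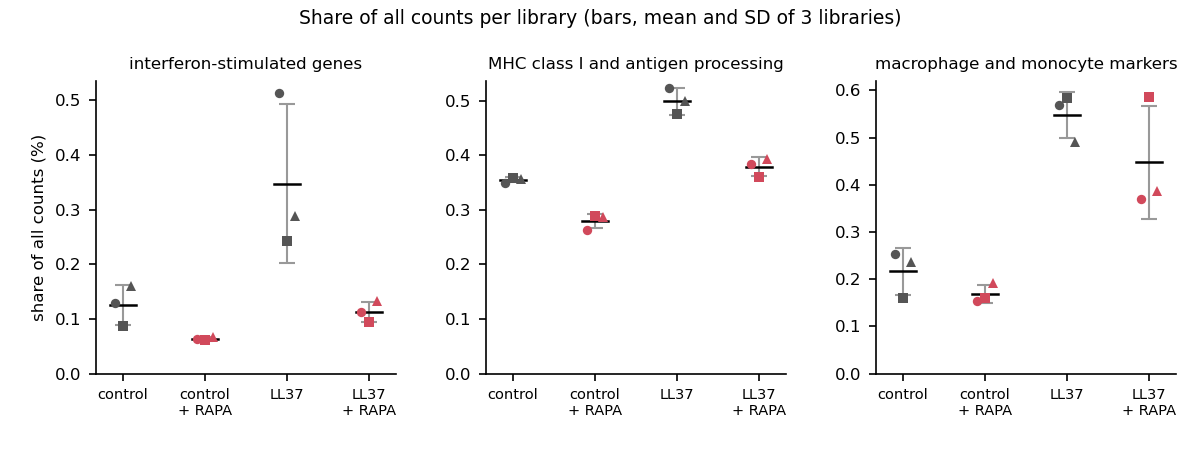
The y axis is the percent of all counts of a library that fell on 3 gene lists in the 4 groups, with points for libraries (circle, square and triangle for replicates 1, 2 and 3) and bars for the mean and SD of 3 libraries. ISG shares are 0.0605% to 0.0675% in control + RAPA and 0.0870% to 0.159% in control, and the macrophage shares of these groups overlap.

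Leukocyte marker lists differed among themselves. Of 42 tested macrophage and monocyte markers 6 were lower without overlap (14.3%, against 8.0% of all genes) and 0 higher, and 14 had an unadjusted p under 0.05, all lower (5.21% of all genes were). Their median was -0.52 with a within-group SD of 0.33. Ms4a7, a membrane protein of tissue macrophages, was at 9.65, 5.83 and 12.6 CPM in control and 2.88, 2.63 and 2.42 CPM with RAPA (log2 fold change -1.82, SE 0.29). Adgre1, which encodes the macrophage marker F4/80, was at 45.3, 26.3 and 35.5 CPM against 15.8, 16.2 and 23.96 CPM. Fcgr1, an immunoglobulin receptor that interferon also induces, differed by -2.45 (SE 0.60). Csf1r, the receptor on which macrophages depend, overlapped at 75.2 to 125 CPM in control and 80.2 to 90.2 CPM with RAPA. The whole list took 0.160% to 0.252% of counts in control and 0.154% to 0.191% with RAPA, with control replicate 2 again the lowest control. The part of leukocyte numbers in the ISG values was not tested.

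Cd5l, a secreted macrophage protein outside the list, was at 4.75, 2.94 and 2.88 CPM in control and at 0.566, 0.422 and 0.110 CPM with RAPA (log2 fold change -3.23, SE 0.47). T cell and NK markers included 9 of 30 tested genes lower without overlap and 0 higher, against 8.0% and 7.92% of all genes, with a median of -0.38, which was -0.15 without control + RAPA replicate 1. The T cell receptor subunit Cd3g was at 5.06, 7.20 and 6.56 CPM in control and 3.29, 4.08 and 3.24 CPM with RAPA, and Ptprcap, a partner of the phosphatase CD45, at 3.77, 2.99 and 3.18 CPM against 1.44, 1.17 and 1.54 CPM. The annotated span of Ptprcap overlaps Coro1b. Klrk1, the activating receptor NKG2D of NK and T cells, differed by -1.97 (SE 0.48). Of 30 dendritic cell and MHC class II markers 2 were lower without overlap (6.67%) and 0 higher, with a median of -0.11. Of 14 tested neutrophil markers 0 stood apart in either direction, with a median of -0.59 and an SD of 0.82 within groups. Mast cell markers had a median of 0.13, with 10 of 15 above 0, 1 higher and 1 lower without overlap. The higher one was Mrgprb2, a receptor that triggers mast cell degranulation, at 9.93, 15.7 and 9.07 CPM with RAPA and 6.14, 7.84 and 6.71 CPM in control.

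Of 45 tested chemokines and receptors 5 were lower without overlap (11.1%, against 8.0% of all genes) and 0 higher. A log2 fold change below 0 was found for 32 and above 0 for 13, and the median of -0.32 was -0.065 without control replicate 1. Cxcl9, which recruits activated T cells, was at 4.13, 1.03 and 3.98 CPM in control and 0.463, 0.281 and 0.385 CPM with RAPA (log2 fold change -3.0, SE 0.58). Ccl8, a chemokine for monocytes and other leukocytes, was at 15.2, 5.49 and 30.6 CPM against 3.45, 3.56 and 2.91 CPM. Cx3cl1, the membrane-bound fractalkine, differed by -0.32 (SE 0.13). Cxcl10 overlapped, at 0.392 to 6.81 CPM in control and 0.328 to 0.660 CPM with RAPA.

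Of the inflammatory genes that the study measured in mouse skin, Tnf, Il1b, Ccl2, Ccl3, Cxcl12, Mmp9, Vegfa, Nfkb1 and Relb overlapped between the groups, and Il6, Cxcl11 and Camp had too few counts to be tested. Tnf stood at 1.70, 1.37 and 5.50 CPM in control and 2.26, 1.03 and 2.25 CPM with RAPA. Il1b was set by single libraries in both groups, control replicate 3 at 19.1 CPM and control + RAPA replicate 1 at 9.36 CPM, with the others between 0.441 and 1.55 CPM. Il1a, the interleukin that keratinocytes store, was higher without overlap at 11.01, 12.4 and 11.4 CPM against 7.38, 7.89 and 8.52 CPM in control, and Rela, the p65 subunit of NF-κB, at 89.5, 95.1 and 91.5 CPM against 89.1, 78.1 and 70.9 CPM. Of 68 tested NF-κB pathway genes 9 were lower (13.2%) and 3 higher (4.41%) without overlap, against 8.0% and 7.92% of all genes. Their median was -0.06, and Card10, an adaptor of epithelia, was higher by 0.50 (SE 0.09) on the log2 scale.

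Of 67 tested genes of barrier and cornification 17 (25.4%) were higher without overlap, against 7.92% of all genes, and 3 were lower. Log2 fold changes in the list ran from -3.08, the value of Krt2 described below, to 0.57. An unadjusted p under 0.05 was found for 24, 21 of them higher (5.13% of all genes were), and the median log2 fold change was 0.23, which was 0.14 without control replicate 1 and 0.35 without control replicate 2. Smpd3, a neutral sphingomyelinase, was at 116, 114 and 113 CPM with RAPA and 84.5, 83.0 and 72.9 CPM in control (0.51, SE 0.09, edgeR adjusted p = 0.258), and the cornified envelope gene Lce1c at 289, 290.1 and 269 CPM against 182, 243 and 171 CPM. Il1f5, an interleukin-1 family antagonist of the epidermis, differed by 0.52 (SE 0.13) and the growth factor gene Tgfa by 0.51 (SE 0.12), both higher without overlap. Among 24 basal cell markers 4 were higher (16.7%, against 7.92% of all genes) and 0 lower without overlap, with a median of 0.11. Of these markers Notch1 differed by 0.27 (SE 0.09), Jag2 by 0.30 (SE 0.11) and Lamb3 by 0.27 (SE 0.10) on the log2 scale.

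Krt2 had the smallest p of all genes and was lower. This gene, which encodes a keratin of the upper spinous and granular layers of thick epidermis, at chr15:101810689-101818169 on the minus strand, was at 9.50, 9.80 and 9.38 CPM in control and 1.96, 0.610 and 0.824 CPM with RAPA. The log2 fold change was -3.08 (SE 0.37), with an edgeR adjusted p of 0.258, and all 3 RAPA libraries lay under the 3 controls. DESeq2 gave an adjusted p of 3.85e-14 for it. The next in order, Serpina3j of a serpin cluster with close copies, was at 126, 182 and 176 CPM against 75.6, 57.6 and 75.8 CPM (-1.21, SE 0.17). Cyp2b23, a cytochrome P450, was at 7.69, 10.2 and 11.7 CPM against 2.47, 4.64 and 2.91 CPM.

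The 8 higher genes with the smallest p and no overlap differed by 0.51 to 0.94 on the log2 scale, and the 8 lower genes chosen the same way by -3.23 to -0.52. Slc39a8, which imports zinc and manganese, was at 84.3, 114 and 99.5 CPM with RAPA and at 44.3, 57.6 and 53.3 CPM in control. The immediate early transcription factor gene Maff was at 103, 136 and 89.3 CPM against 56.9, 55.5 and 63.8 CPM, and the serine/threonine kinase gene Pim1 at 189.9, 193 and 156 CPM against 119, 115 and 111 CPM. Each of these RAPA groups was clear of the controls. Il22ra1, the keratinocyte receptor for interleukin-22, was at 31.2, 32.7 and 33.0 CPM against 19.3, 19.9 and 22.7 CPM. Ephb3, an ephrin receptor, Nkpd1 and Gpsm1 differed by 0.58 (SE 0.08), 0.66 (SE 0.10) and 0.59 (SE 0.10), with Smpd3 making up the 8. Of 34 immediate early and heat shock genes 4 were higher (11.8%, against 7.92% of all genes) and 0 lower without overlap, with a median of 0.29. Jun was at 260.4, 227 and 215 CPM against 185, 151 and 161 CPM.

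**Figure D3:**
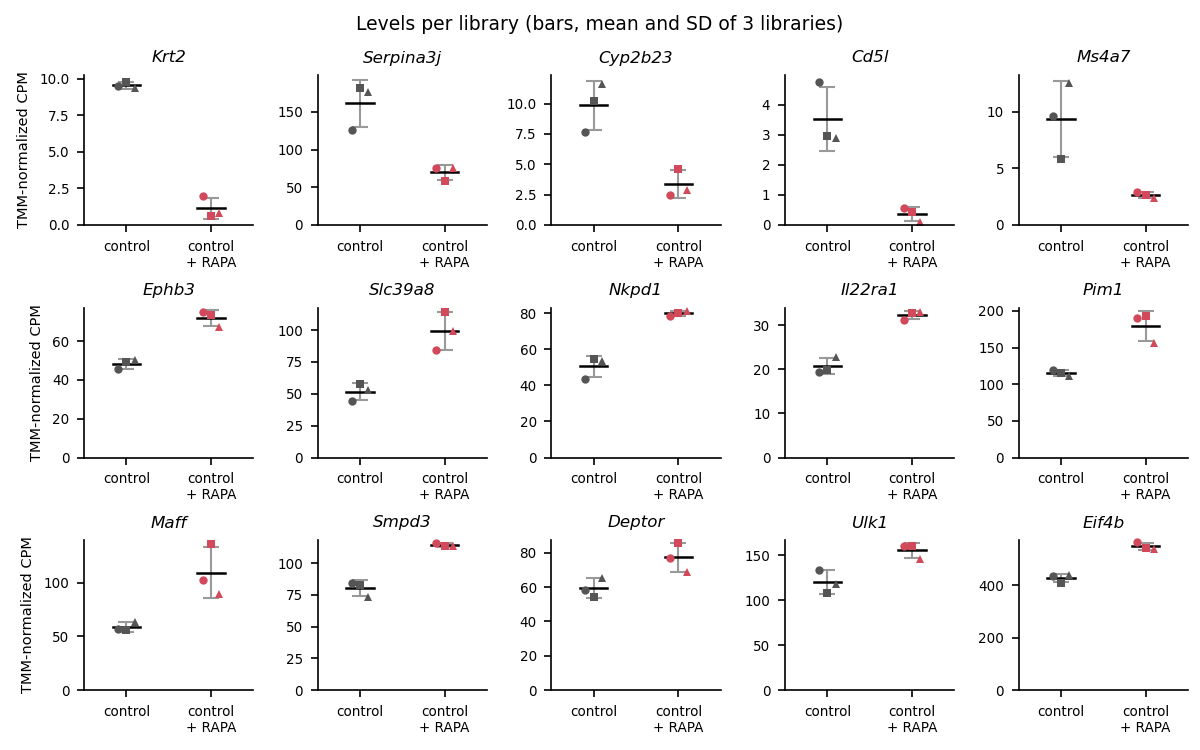
TMM-normalized CPM is plotted on linear axes from 0 for 15 genes in control and control + RAPA, with points for libraries and bars for the mean and SD of 3 libraries. No pair of groups overlaps in any panel, and Krt2 lies at 9.38 to 9.80 CPM in control and at 0.610 to 1.96 CPM with RAPA.

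The transcripts of the target itself were little different. Of 60 genes of the mTOR complexes, their regulators and the proteins RAPA binds, all tested, 7 were higher (11.7%) and 4 lower (6.67%) without overlap, near the shares of all genes, and the median was 0.03, or -0.020 with library size scaling. Mtor was at 78.5, 75.9 and 67.7 CPM in control and 77.7, 88.7 and 83.8 CPM with RAPA, Rptor, the scaffold of mTORC1, at 57.7, 52.3 and 64.4 CPM against 51.4, 56.0 and 58.4 CPM, and Fkbp1a at 187, 163 and 176 CPM against 177, 184 and 194 CPM. These groups overlapped, as did Rictor of mTOR complex 2. The transcript levels say nothing of the kinase activity, which was not measured here.

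The 7 higher genes were Deptor, Eif4b, Ulk1, Fkbp5, Eif4ebp1, Rps6 and Maf1. Deptor, an inhibitor of mTOR, was at 77.2, 86.0 and 69.0 CPM with RAPA and 58.6, 54.0 and 65.5 CPM in control (log2 fold change 0.38, SE 0.11). Eif4b, a translation initiation factor downstream of mTORC1, was at 565, 542 and 539 CPM against 435, 409 and 440.5 CPM (0.36, SE 0.09). Ulk1, the kinase that starts autophagy and that mTORC1 restrains, was at 161, 161 and 146 CPM against 134, 108 and 119 CPM (0.38, SE 0.10). Eif4ebp1, a translation repressor that mTORC1 inactivates, and Fkbp5, a further RAPA-binding protein that glucocorticoids induce, differed by 0.49 (SE 0.16) and 0.64 (SE 0.19). The 4 lower genes were Sesn3, a stress-induced inhibitor of mTORC1 (-0.43, SE 0.13), Tti1, Tbc1d7 and Fkbp3. The other 49 genes overlapped, with log2 fold changes from -0.65 (Fkbp1b) to 0.39 (Ddit4).

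Lists of processes downstream of mTORC1 had small medians, in both directions. Of 76 nuclear genes of the mitochondrial respiratory chain 21 (27.6%, against 8.0% of all genes) were lower without overlap, 0 higher, and 74 had a log2 fold change below 0, with a median of -0.19. The complex I subunit Ndufv2 was at 96.3, 108 and 99.4 CPM in control and 88.7, 70.4 and 79.6 CPM with RAPA. Ndufs1, also of complex I, and Atp5g3, of the ATP synthase, differed by -0.32 (SE 0.10) and -0.33 (SE 0.11). The list took 1.31%, 1.42% and 1.35% of counts in control and 1.23%, 1.02% and 1.19% with RAPA (exact permutation p = 0.1, adjusted over all lists 0.733). Summed as TMM-normalized CPM the same list gave an exact permutation p of 0.2. Of the 15 transcripts encoded in the mitochondrial genome 0 were lower or higher without overlap, with a median of -0.06. Without control + RAPA replicate 2 the median of the respiratory chain list was -0.11.

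Cytosolic ribosomal protein genes lay on the other side, with 17 of 82 (20.7%, against 7.92% of all genes) higher without overlap, 0 lower, and 71 above 0, with a median of 0.16, which was 0.11 without control replicate 1. Rps7 was at 609.9, 601 and 616 CPM with RAPA and 482, 557 and 485 CPM in control, and Rpl12 at 861, 820.2 and 884 CPM against 677, 775 and 665 CPM. Many of these genes have processed pseudogenes that may share reads. An unadjusted p under 0.05 was found for 7 of the 82, all higher, against 5.13% of all genes in that direction. Ribosome biogenesis genes had 1 of 49 higher (2.04%) and 3 lower (6.12%, against 8.0% of all genes) without overlap, with a median of -0.01.

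Of 76 lysosome and autophagy genes 16 (21.1%) were higher and 7 (9.21%) lower, against 7.92% and 8.0% of all genes, without overlap, with a median of 0.03, or -0.016 with library size scaling. Atg9b, a membrane protein of early autophagy whose span overlaps Nos3 on the opposite strand, was at 253, 225 and 217 CPM with RAPA and 154, 179 and 152 CPM in control (0.52, SE 0.11). Bnip3l, a receptor for the removal of mitochondria, was at 147, 164 and 146 CPM against 115, 123 and 118 CPM. Of 24 fatty acid synthesis genes 2 were higher (8.33%) and 3 lower (12.5%) without overlap, with a median of -0.13. The desaturase gene Scd2 was at 94.6, 88.6 and 92.9 CPM in control and 69.3, 48.9 and 61.3 CPM with RAPA, and Gpam, which starts glycerolipid synthesis, at 102, 98.4 and 93.9 CPM against 81.2, 64.3 and 61.4 CPM. Cholesterol synthesis genes had 1 of 27 (3.70%) on either side, Hsd17b7 lower and Dhcr7 higher, with a median of -0.23.

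Of 47 ATF4 amino acid and one-carbon genes 6 were lower (12.8%) and 3 higher (6.38%) without overlap, against 8.0% and 7.92% of all genes. Their median was -0.09. Aldh1l2, a mitochondrial folate enzyme, was at 2.89, 2.01 and 2.98 CPM in control and 0.926, 0.704 and 1.32 CPM with RAPA, and the proline synthesis gene Aldh18a1 differed by -0.59 (SE 0.15). Of 30 ER chaperones and unfolded protein response genes 6 were lower (20%) and 1 higher (3.33%) without overlap, with a median of -0.10. The chaperone gene Hspa5 was at 345, 343 and 382 CPM against 264, 261 and 323 CPM. Of 50 DNA replication genes 8 were lower (16%, against 8.0% of all genes) and 1 higher, with a median of -0.22. Of 54 mitosis genes 4 were lower (7.41%) and 53 had a log2 fold change below 0, but the mitosis median of -0.41 lay within the SD of 0.50 between libraries of a group. The spindle checkpoint kinase gene Bub1 was at 2.48, 3.28 and 2.98 CPM in control and 1.60, 1.45 and 1.04 CPM with RAPA.

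In the dermis, 11 of 74 fibroblast and collagen genes (14.9%, against 8.0% of all genes) were lower and 0 higher without overlap, with a median of -0.19 and an SD of 0.26 within groups, and the median was -0.019 without control replicate 1. Lum, a proteoglycan of collagen fibrils, was at 78.9, 57.0 and 62.7 CPM in control and 46.6, 37.01 and 40.2 CPM with RAPA, and Col18a1 of basement membranes differed by -0.34 (SE 0.10). Control replicate 1 held the most of Col1a1, at 1624 CPM against 604 and 807 CPM in the other controls and 530 to 677 CPM with RAPA. In the whole list a log2 fold change below 0 was found for 57 genes and above 0 for 17. The fibroblast marker Pdgfra overlapped, at 32.9 to 74.3 CPM in control and 49.7 to 67.9 CPM with RAPA. So did Dcn, at 329 to 495 CPM and 346 to 482 CPM. Schwann cell and nerve markers had 5 of 21 higher without overlap (23.8%, against 7.92% of all genes), with a median of 0.25. Adipocyte markers had 4 of 34 higher (11.8%), with a median of 0.22, and 0 were lower in either list. Of 26 glucocorticoid and fasting response genes 4 were higher (15.4%) and 1 lower, and 25 had a log2 fold change above 0, with a median of 0.34 and an SD of 0.32. Lcn2, the iron-binding lipocalin, was at 23.5, 63.4 and 39.96 CPM with RAPA and 15.6, 12.5 and 19.2 CPM in control. The skeletal muscle list had 2 of 77 higher (2.60%) and 6 lower (7.79%) without overlap, and the latter is near the 8.0% of all genes. The mitochondrial creatine kinase gene Ckmt2 was at 151, 129.9 and 107 CPM in control and 80.8, 63.3 and 78.8 CPM with RAPA. The calcium store gene Casq2 differed by -0.91 (SE 0.22).

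**Figure D4:**
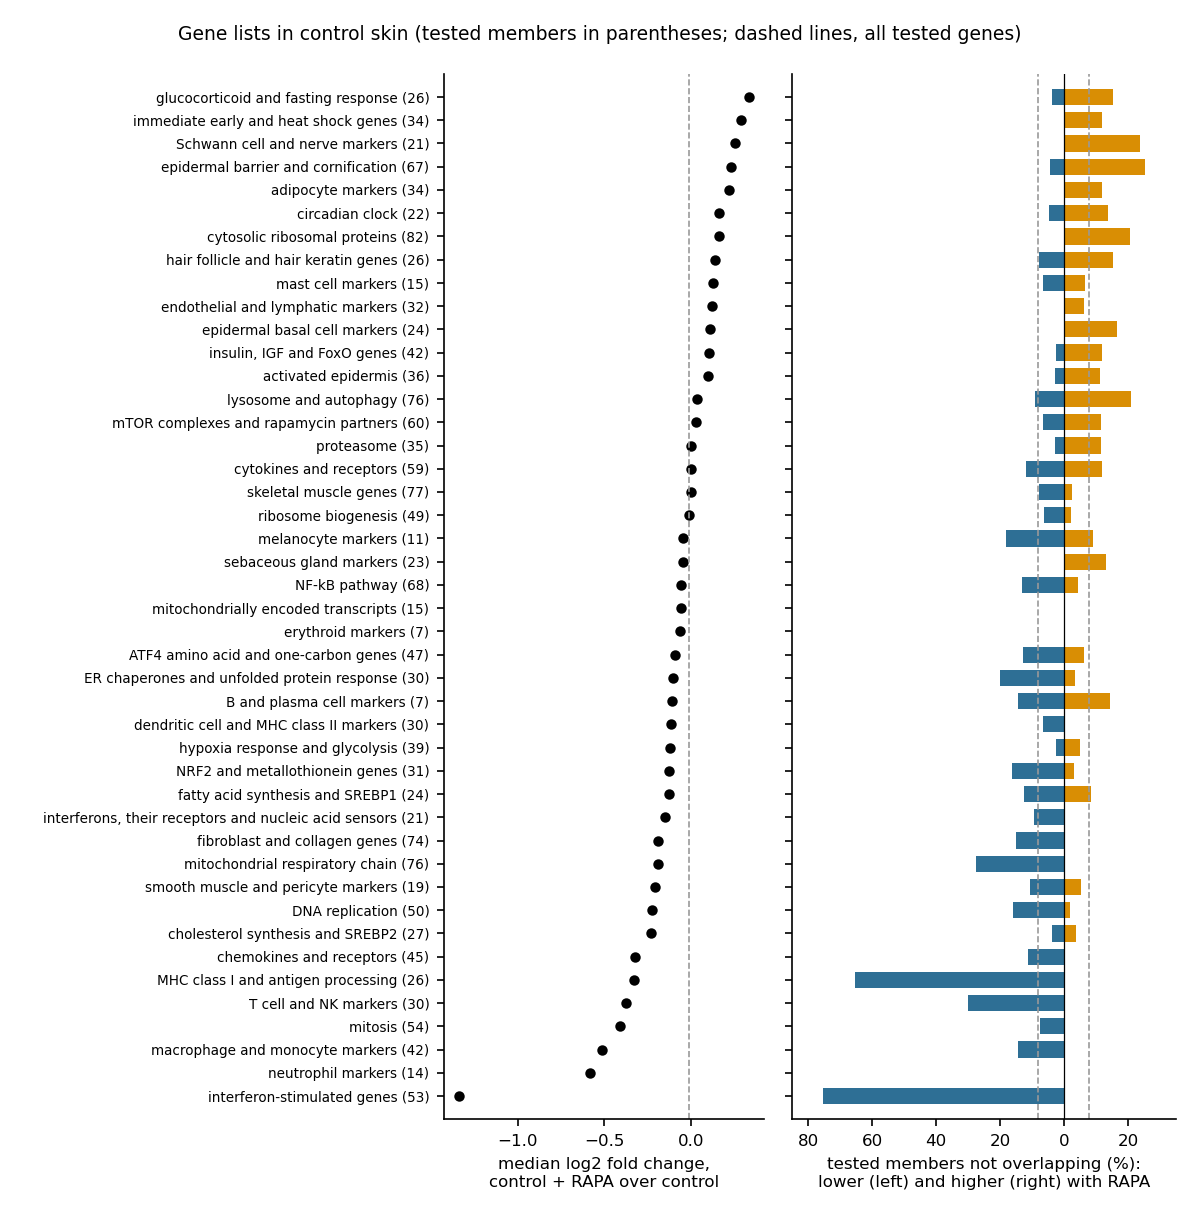
For 44 gene lists the left panel gives the median log2 fold change of control + RAPA over control and the right panel the percent of tested members whose libraries did not overlap, lower to the left and higher to the right, with dashed lines for all tested genes (-0.01, 8.0% and 7.92%). ISGs stand lowest at -1.34 with 75.5% of members lower. MHC class I genes, listed after the counts had been seen, follow in share at 65.4%.

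Some of these lists were also set beside LL37 skin. In the fit of 12 libraries the median of the ribosomal protein genes was 0.17 in control skin and 0.17 in LL37 skin, and that of the respiratory chain -0.18 and -0.07. The epidermal barrier list, with 72 genes tested there, had a median of 0.23 in control skin and -0.31 in LL37 skin, and 7 of its genes were called in the interaction, against 3.28% of all genes. Those 590 interaction calls over all genes became 3145 without LL37 replicate 3.

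**Figure D5:**
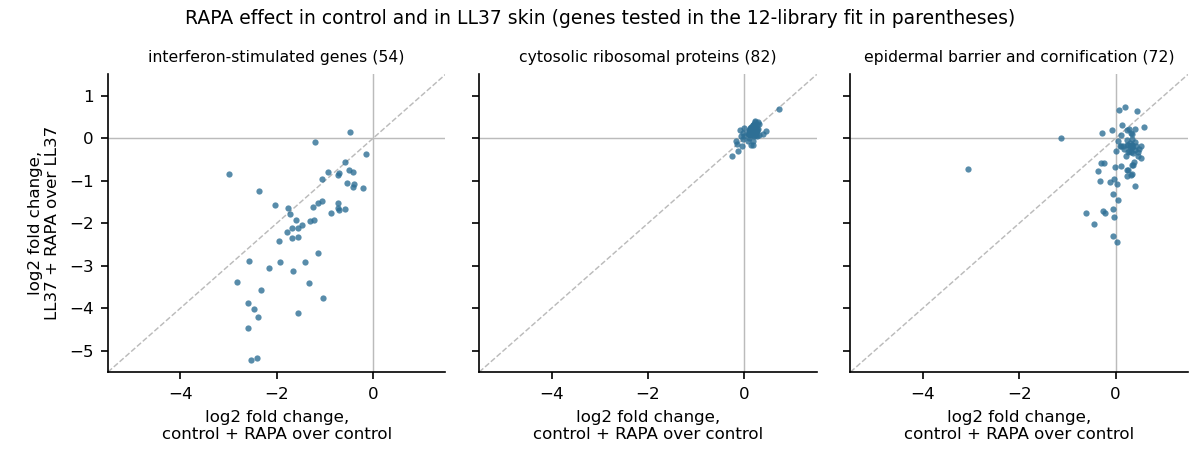
Each point is a gene of 3 lists, with its log2 fold change for RAPA in control skin on the x axis and in LL37 skin on the y axis, both from the fit of 12 libraries, and a dashed line where both are equal. ISGs lie in the lower left, with medians of -1.38 and -1.86, ribosomal protein genes near 0.17 on both axes, and barrier genes at 0.23 and -0.31.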

How the data were processed

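RNA from whole mouse skin was sequenced in 12 libraries of 4 groups with 3 libraries each, and the 6 without LL37 were compared here. The authors deposited raw read counts per gene in 1 table, without normalization and with replicates kept apart. The study's methods name HTSeq for counting, while the submitters' processing notes name HISAT2 2.0.5, StringTie 1.3.3b, featureCounts 1.5.0-p3 and DESeq2 1.16.1 with the mm10 genome, so which counter made the table is uncertain. The kit does not mark strand. Of 52636 genes in the table, 52403 were matched by identifier to the GENCODE annotation of GRCm38.

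Counts of the 6 libraries were fitted in R 4.3.3 with edgeR 4.0.16 (filterByExpr by group, TMM normalization, quasi-likelihood F-test, Benjamini-Hochberg adjustment over 16972 tested genes, called under 0.05). The other 6 libraries, which varied more, entered only the fit with the interaction of LL37 and RAPA. CPM values are TMM-normalized, fold changes are on the log2 scale, and the depth of 18184939 to 21289034 counts makes 3 counts worth 0.141 to 0.165 CPM. The study described its mouse groups as 3 independent samples, and the p-values measure the spread between these. Alternatives were DESeq2 1.42.0, limma 3.58.1 (voom), other normalizations and filters, each library left out, shares of muscle and adipocyte counts as terms and the replicate number as a block.

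The members and the gene lists were chosen with earlier results of these data known, and 3 of 44 lists were written after the counts had been seen. Named genes are the 8 with the smallest p in each direction among non-overlapping genes of at least 1 CPM on average, the 3 non-overlapping members of each list with the smallest p, the mTOR list and the genes the study names. Further ISGs, B2m, Csf1r, Col1a1, Pdgfra, Dcn, S100a8, S100a9 and the marker genes at 0 were chosen after their values were seen. Lists are described by counts and medians, to be read against the shares and median of all genes. For a list's SD, the median deviation of its genes from their mean over the 6 libraries was taken in each library. The SD of these medians was pooled within the groups. Gene spans come from GENCODE and promoters from RefSeq (GRCm38.p6). A few single genes that the naming rule or the lists include are not reported here.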

Additional observations from a re-analysis of the deposited data

Results flagged for a closer look

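For 8 genes described above or in their lists, the effect of RAPA differed between LL37 skin and control skin by the interaction test of edgeR over 12 libraries. These were the genes called by that test among the 130 named genes. Many named genes were chosen by small p and no overlap in the control skin comparison, which is also part of the interaction. Their interaction values are therefore not independent of that choice and are no separate support. Over all genes the test called 590 of 17993 (3.28%), and 3145 without LL37 replicate 3. The log2 difference, LL37 skin minus control skin, was -1.19 for Tgfa (adjusted p = 0.0211), with a log2 fold change of 0.52 in control skin and -0.68 in LL37 skin. It was -1.93 for Il1a (adjusted p = 0.0279), at 0.56 in control skin and -1.37 in LL37 skin. It was -1.41 for Dusp5, a phosphatase of ERK (adjusted p = 0.0293), at 0.46 and -0.95, and -0.52 for Mxi1, a repressor related to MAX (adjusted p = 0.0415), at 0.29 and -0.24. For Vegfa it was -1.81 (adjusted p = 0.0198), at 0.29 and -1.52, and for Car9, a carbonic anhydrase induced by hypoxia, -1.57 (adjusted p = 0.0284), at -0.77 and -2.34.

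In the other direction, the log2 difference was 4.31 for the muscle gene Myot (adjusted p = 0.0447), at 0.35 in control skin and 4.65 in LL37 skin, and 2.46 for Cyp2b23 (adjusted p = 0.0371), at -1.55 and 0.91. Skeletal muscle genes took 0.0617% to 0.230% of counts in LL37 libraries, 0.642% to 1.29% in LL37 + RAPA and 5.87% to 9.58% in the libraries without LL37. The part of the muscle content in the value of Myot was not tested.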

How the results depend on the processing

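The count of called genes, 0 with edgeR, depended on the tool, the filter and single libraries. DESeq2 called 217, edgeR without a filter beyond 1 count in total called 156, and leaving out a library gave 0 to 78, with 78 without control replicate 2 and 1 without control + RAPA replicate 1. An unadjusted p under 0.05 was met by 1755 genes. With 1 library left out, the count of non-overlapping genes was 1902 to 2535 higher and 1945 to 2623 lower, and fewer libraries make such a separation more frequent by construction. Library size scaling gave 764 higher genes and medians of -0.38 for MHC class I, -0.016 for lysosome and autophagy and -0.020 for the mTOR list. Upper quartile scaling gave 0.0068 for lysosome and autophagy and 0.0050 for the mTOR list, which was at 0.040 in the fit of 12 libraries. Leaving out a library gave -0.34 to -0.24 for MHC class I, -0.42 to -0.15 for T cell and NK markers and 0.030 to 0.058 for the mTOR list. The interaction calls went from 590 to 3145 without LL37 replicate 3. The causes of these shifts were not tested. The ISG median stayed between -1.60 and -1.01, with 39 to 52 members lower without overlap.

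Of 130 named genes with up to 16 alternatives each, 1992 of 2080 values kept their sign and side of the threshold, 76 passed it and 12 reversed sign. The reversed log2 fold changes were all in genes whose libraries overlapped. Leaving out a library gave -0.14 to 0.0086 for Rptor, -0.97 to 0.26 for Tnf and -2.81 to 1.93 for Il1b, each highest without control replicate 3, and -0.081 to 0.011 for Nfkb1, highest without control replicate 2. The value was -0.010 for Cxcl12 with the adipocyte share as a term. For Relb, at -0.19 without control replicate 3, they were 0.11 without control replicate 1, 0.048 without control replicate 2, 0.048 without control + RAPA replicate 2, 0.011 without control + RAPA replicate 3, 0.0023 with the replicate block, 0.026 with the adipocyte share and 0.0039 with limma voom.

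The replicate numbers showed no sign of pairing: deviations of same-numbered libraries correlated at -0.097, -0.029 and 0.098, and those of differently numbered libraries at -0.093 to 0.125. With 3 libraries a group these values cannot exclude a pairing. With the replicate block edgeR called 0 genes, and 1617 had an unadjusted p under 0.05. With 3 libraries a group, exact tests of single values cannot go below 0.1, and genes near 1 CPM rest on few counts.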
